A study of Mus musculus with 11 samples.

Results

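The genes described here are the kinesins, centromere proteins, spindle checkpoint genes, mitotic kinases and A- and B-type cyclins of 3T3-L1 cells, a mouse preadipocyte line. They were chosen by gene symbol alone, after the symbols of the array were updated through the gene ID where possible. A gene was taken if its probe set carried 1 symbol that started with Kif, Cenp, Bub, Aurk, Plk, Ccna or Ccnb. The number or letter of a family member had to follow. The symbols Cdc20, Ndc80 and Mad2l1 were taken too. Of 72 such genes on the array, 59 had a mean normalised intensity above 7.81 and were tested, among 12428 genes tested in all. The brightest probe set stood for each gene. Cultures had been given either the t10c12 isomer of conjugated linoleic acid (CLA) or linoleic acid (LA), the control fatty acid, and total RNA was hybridised to Affymetrix arrays of 1 colour. There were 2 CLA arrays each at 4, 8 and 12 h, 2 LA arrays each at 8 and 12 h, and 1 LA array at 4 h. A further LA array that the design text implies at 4 h was not analysed here, and no dose was given. All cultures were of the same cell line, without a genetic change in the labels. The labels call the repeats biological but do not say that they were separate cultures, so p-values measure the spread between these arrays, which may be technical.

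Kinesins are motor proteins that walk along microtubules or take them apart. In mitosis some of them build the spindle, move chromosomes and divide the cell, while others carry vesicles and organelles all the time. Centromere proteins mark the site on each chromosome where the kinetochore forms, and the spindle checkpoint holds back Cdc20, an activator of the anaphase-promoting complex, until every kinetochore is attached. Transcripts of many mitotic genes peak in G2 and M phase, so their levels in a culture follow the share of dividing cells, and 3T3-L1 preadipocytes divide when they are induced to become adipocytes. In RNA of whole cultures, fewer dividing cells and less RNA per dividing cell cannot be told apart.

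Of the preadipocyte and fibroblast markers, 9 of 9 were above the array background of 8.89 on every array. Of 7 adipocyte markers, 3 (Fabp4, at 174 to 473, Lipe and Slc2a4) were above it on every array, and Lep, Retn and Cidec were at background on all arrays. Of 7 macrophage markers, 4 (Cd14, at 328 to 564, Csf1r, Lyz2 and Adgre1) were above it on every array, and Ptprc and Itgam were at background on all arrays. Of 5 endothelial markers, 0 were above it on every array. Among 5 skeletal muscle markers, 2 were (Ckm and Acta1, the latter at 14.1 to 101), with Myog and Myh4 at background on all arrays. Among 4 osteoblast and chondrocyte markers, 1 was (Sp7, at 27.8 to 49.9). The macrophage marker Csf1r read 168 and 109 in CLA at 4 h, against 1171 in the single LA array. The 2 LA arrays at 12 h stood apart from the other 9. They scored 48.9 and 49.1 on the first principal component, against 5.15 and 16.5 for CLA at 12 h, and their deposited median intensities of 11.6 and 10.6 were the lowest. The 3' to 5' signal ratio of Gapdh, a gauge of RNA integrity, was 0.884 and 0.954 in CLA at 12 h and 0.983 and 1.18 in LA at 12 h. The corresponding ratio of actin was 1.49 and 1.31 in CLA and 1.55 and 1.59 in LA. Each difference between CLA and LA at 12 h, and between 12 and 8 h in LA, rests on those LA arrays. The part of RNA quality in it was not tested. A fit with the array median intensity as covariate, given at the end, called fewer genes in both comparisons. Since the LA arrays at 12 h had the lowest medians, that fit cannot fully separate overall intensity from the group.

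Another 13 genes of the families were too dim to test. They included Cenpe (mean 7.13), a kinetochore motor, Ndc80 (3.32), which binds microtubules at the kinetochore, Cenpf (2.93), and the chromosome motor Kif4, which was at background on all 11 arrays. Cenpe lay just under the threshold, and Kif1a (9.47) and Kif20b (10.2) lay just above it. Ccnb1 was not analysed here. Of the 59 genes tested, 21 averaged 100 or more and 38 averaged less. On every array, 43 of the 59 were above background, among them 24 of the 36 genes with mitotic roles.

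Genes of these families were called in both directions. A gene was called where limma's moderated test gave a Benjamini-Hochberg adjusted p under 0.05 over all 12428 genes. At 4 h, 0 of the 59 genes were called between CLA and LA, against 0.298% of all genes, and 4 had an unadjusted p under 0.05. At 8 h, 0 were called, against 0% of all genes, and 3 had an unadjusted p under 0.05. At 12 h, 11 were called, 5 higher and 6 lower in CLA, which is 18.6% against 18.8% of all genes. With the mean over the 3 times, 5 were called, 1 higher and 4 lower (8.47%, against 7.16% of all genes). Between 8 and 12 h, 0 were called in CLA (0.402% of all genes), and 2 had an unadjusted p under 0.05. In LA, 10 were called between 8 and 12 h, 2 higher and 8 lower at 12 h, which is 16.9% against 22.3% of all genes. These shares were near the background, so the counts themselves are no result about these families. The test of whether the change between 8 and 12 h differed between CLA and LA called 0 of the 59 genes (1.17% of all genes), and 8 had an unadjusted p under 0.05. The 59 log2 differences between CLA and LA ran from -1.51 to 1.33 at 4 h, from -1.53 to 1.36 at 8 h and from -1.28 to 1.55 at 12 h. The smallest adjusted p in the limma test of the difference in change were 0.0547 for Plk4, 0.0629 for Kif5b and 0.107 for Kif2a. At 8 h the smallest p were those of Bub3 (log2 difference -0.31), Kif23 (-1.53) and Kif3c (-0.43), each with an adjusted p of 0.986 in limma. Between 8 and 12 h in CLA they were those of Cenpj (-0.43, adjusted p = 0.416), Bub3 (0.22, adjusted p = 0.420) and Cenpx, a histone-fold protein of the kinetochore (0.36, adjusted p = 0.546).

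**Figure D1:**
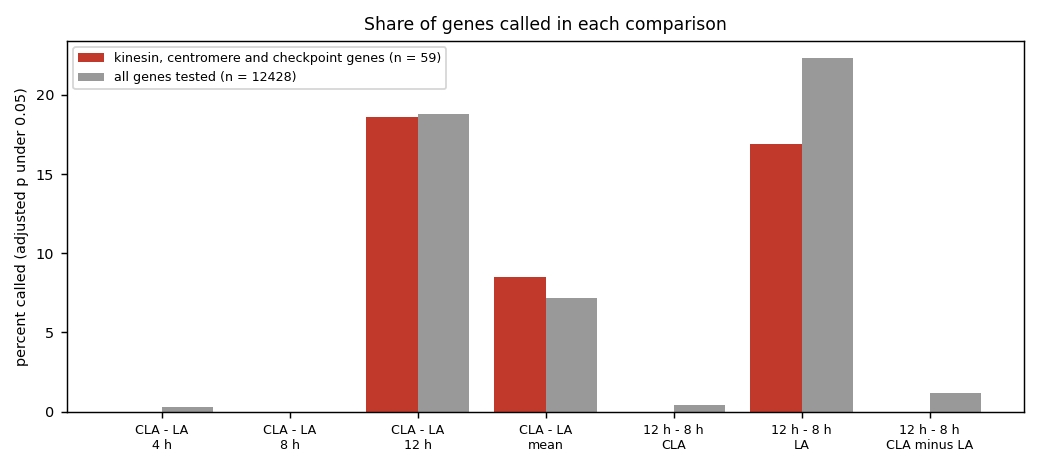
Percent of genes called (adjusted p under 0.05, limma) in each comparison, for the 59 kinesin, centromere and checkpoint genes and for all 12428 genes tested. At 12 h the bars stand at 18.6 and 18.8 percent, and between 8 and 12 h in LA at 16.9 and 22.3 percent.

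The smallest p between CLA and LA at 12 h was that of Kif5b (probe set 1418429_at), the heavy chain of conventional kinesin, which hauls vesicles, mitochondria and mRNA and is not a mitotic motor. Its normalised intensity at 12 h was 990.2 and 791 in CLA, against 314 and 289 in LA. The LA arrays at 12 h were the low ones: the LA array at 4 h read 730.1 and those at 8 h read 888 and 842, while the earlier CLA arrays read 939 and 1009.5 (4 h) and 1327 and 696 (8 h). Kif5b was thus higher in CLA than in LA at 12 h by 1.55 ± 0.23 (SE) on the log2 scale, 2.92-fold (limma adjusted p = 0.0016). Within LA it was lower at 12 h than at 8 h by a log2 difference of -1.52 ± 0.23 (adjusted p = 0.00131), while within CLA the difference was -0.12 (95% interval -0.62 to 0.38). The other 5 probe sets of Kif5b that passed the filter all had the same sign at 12 h, with log2 differences of 1.49 to 2.28. Kif5b kept its call at 12 h without any 1 array.

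Among the mitotic kinesins, 1 of 9 was higher and 1 lower in CLA at 12 h (22.2%, against 18.8% of all genes). The groups by role are small, so this count and those below are no result about them. Kif2a (1450053_at), which strips tubulin from microtubule ends at the spindle poles, read 393 and 324 in CLA, against 256 and 257 in LA. All 4 values were below the LA readings of 423 and 434 at 8 h. The log2 difference between CLA and LA at 12 h was 0.47 ± 0.12 (1.39-fold, limma adjusted p = 0.0194), and 3 of 3 other probe sets gave 0.67 to 1.74. Within LA, Kif2a was lower at 12 h than at 8 h by a log2 difference of -0.74 ± 0.12 (adjusted p = 0.00182).

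Kif22 (1437716_x_at), a motor on chromosome arms that pushes chromosomes toward the middle of the spindle, read 146 and 245 in CLA at 12 h, against 330 and 311 in LA. The CLA readings were below the LA readings at the earlier times too, with neither difference called: at 4 h they read 223 and 195, against 313 in LA, and at 8 h they read 221 and 219, against 259 and 251 in LA. Kif22 was lower in CLA at 12 h by a log2 difference of -0.75 ± 0.19 (limma adjusted p = 0.0229), and over the 3 times by a mean of -0.52 ± 0.12 (adjusted p = 0.0337). Both other probe sets of Kif22, with means of 23.0 and 8.81, were also lower at 12 h, with log2 differences of -0.91 and -1.40. At 4 h they ran the other way, at 0.75 and 0.98, at 8 h they gave -0.67 and 0.29, and their means over the times were -0.28 and -0.04. The suffix x_at marks probes that may also bind other transcripts.

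The other mitotic kinesins were dim. Kif23, which gathers microtubules at the cell's waist for cytokinesis, read 35.4 and 19.6 in LA at 8 h. In LA at 12 h it read 3.55 and 3.84, below background on both arrays. It was at least 2.96-fold lower in LA at 12 h than at 8 h (fitted log2 difference -2.35 ± 0.57, limma adjusted p = 0.0150). The CLA arrays read 14.1 and 4.15 at 8 h, then 6.91 and 12.8 at 12 h. At 4 h it read 15.1 and 17.3 in CLA, against 49.4 in the single LA array.

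Kif11, the motor that pushes the spindle poles apart, showed the same low LA readings at 12 h, 7.18 and 2.98, against 15.9 and 20.4 at 8 h. It was at least 2.03-fold lower at 12 h than at 8 h in LA (fitted log2 difference -1.59 ± 0.47, limma adjusted p = 0.0336). Its other probe set that passed the filter gave -0.27, and the call was lost when probe sets were averaged. In CLA it read 13.99 and 14.44 at 12 h, at least 1.60-fold higher than LA, a difference that was not called (adjusted p = 0.0768). Kif18a, which damps the swing of chromosomes at the spindle equator, read 13.6 and 20.9 in CLA at 12 h, against 4.45 and 4.72 in LA. By its means it was at least 1.90-fold higher in CLA, a difference that was not called (adjusted p = 0.0751). Kif2c, a depolymerase at the centromere, read 13.9 and 10.6 in CLA at 12 h, against 20.0 and 22.0 in LA, with a log2 difference of -0.71 (95% interval -1.48 to 0.06), and its 3 other probe sets ran from -0.61 to 0.68. For Kif20a, a motor of the spindle midzone, the difference was -0.37 (95% interval -1.09 to 0.34). The dim mitotic motors thus lay on both sides of 0 at 12 h.

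Of the 20 kinesins with other or less specific roles, 1 was higher (Kif5b) and 3 were lower in CLA at 12 h. That is 20%, against 18.8% of all genes. Kif3c (1448946_at), a subunit of the kinesin-2 motor, read 136 and 184 in CLA, against 243 and 270.5 in LA. At 4 h it read 113 and 87.0 in CLA, against 95.8 in LA. Its log2 difference at 12 h was -0.69 ± 0.19 (limma adjusted p = 0.0281), and its other probe set gave -0.58. Kif3a, the kinesin-2 motor subunit that drives transport along cilia, was not called between CLA and LA. Its log2 difference at 12 h was 0.36, and 3 other probe sets gave 0.62 to 1.02. Kif3a was lower in LA at 12 h, 88.3 and 78.2, than at 8 h, 140.1 and 131 (log2 difference -0.69 ± 0.17, adjusted p = 0.0162).

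Kif1c (1424746_at), which carries secretory vesicles, read 585 and 681 in CLA at 12 h, against 780.4 and 896 in LA, a log2 difference of -0.40 ± 0.11 (limma adjusted p = 0.0272). Within LA it was higher at 12 h than at 8 h by 0.36 ± 0.11 (adjusted p = 0.0353). Its probe sets disagreed at 12 h: of 3 others 1 had the same sign, and they ran from -0.48 to 0.16. Kif21b (1435772_at), which restrains microtubule growth, read 116 and 106 in CLA, against 143 and 159 in LA (-0.44 ± 0.13, adjusted p = 0.0402). On intensities as deposited, without normalisation, its difference turned to 0.09. Kif7, a regulator of Hedgehog signalling in the cilium, had the smallest p at 4 h without being called. It read 44.2 and 32.2 in CLA, against 13.9 in the single LA array (log2 difference 1.33, adjusted p = 0.124), and at 8 h 47.2 and 44.6 in CLA, against 52.8 and 47.0 in LA.

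**Figure D2:**
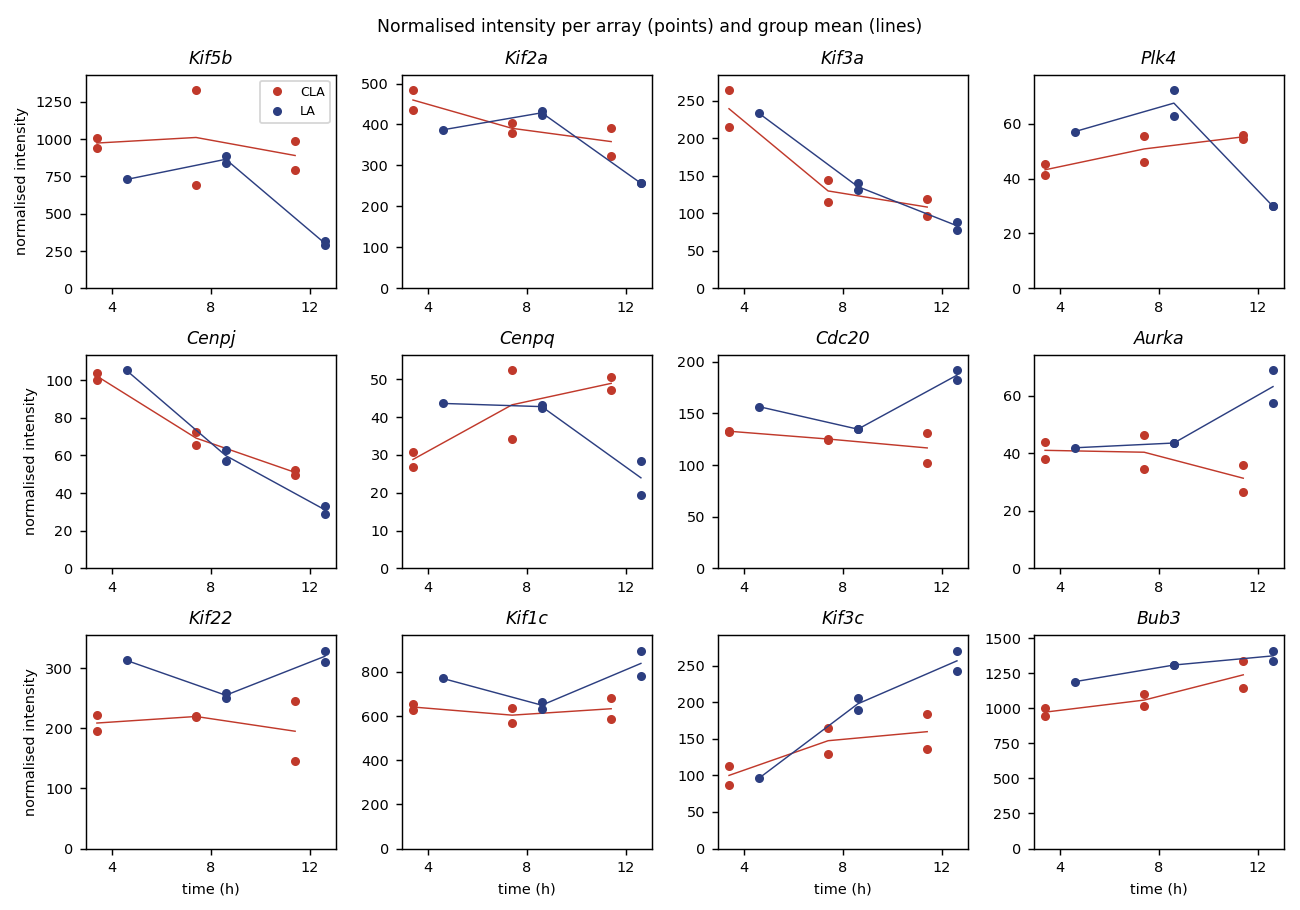
Quantile-normalised intensity (linear scale from 0) of 12 genes at 4, 8 and 12 h; each point is 1 array, CLA red and left, LA blue and right, and lines join group means. For Kif5b, Kif2a, Plk4 and Cenpq the LA arrays at 12 h are the lowest of their panels or near it, and for Cdc20 and Aurka the LA arrays at 12 h are the highest.

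Of 16 centromere and kinetochore genes, 1 was higher and 0 were lower in CLA at 12 h (6.25%, against 18.8% of all genes). That gene was Cenpq (1423620_at), a member of the inner kinetochore's permanent network, with 47.2 and 50.6 in CLA, against 19.4 and 28.4 in LA. Its log2 difference was 0.9985 ± 0.2704 (limma adjusted p = 0.0277), and no other probe set passed the filter. At 4 h its readings ran the other way, 26.8 and 30.8 in CLA against 43.6 in LA, a difference that was not called (adjusted p = 0.702). Cenpc1, which ties the kinetochore to centromeric nucleosomes, read 263 and 340 in CLA at 12 h, against 204 and 194 in LA (0.58, adjusted p = 0.0536). Within LA it was lower at 12 h than at 8 h, where it read 289 and 341, by -0.65 ± 0.19 (adjusted p = 0.0320). Cenpa, the histone H3 variant that marks centromeres, read 42.6 and 37.5 in CLA at 12 h, against 52.2 and 49.3 in LA, a difference of -0.33 (95% interval -0.76 to 0.11). The group's median difference at 12 h was -0.22, against -0.15 over all genes.

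Cenpj is a centromere protein by name, but its product builds centrioles. Its probe set (1437643_at) read 49.5 and 52.4 in CLA at 12 h, against 33.4 and 28.9 in LA (log2 difference 0.68 ± 0.17, limma adjusted p = 0.0212). Its readings were lower at each later time in both fatty acids. The CLA arrays read 100.2 and 104 at 4 h, then 72.7 and 65.8 at 8 h. The LA array at 4 h read 105, and those at 8 h read 63.0 and 56.8. Between 8 and 12 h it was lower at 12 h in LA by -0.91 ± 0.17 (adjusted p = 0.00475), and in CLA by -0.43 ± 0.17, which was not called (adjusted p = 0.416).

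Plk4, the kinase that starts centriole duplication, was the other centriole gene that was higher in CLA. Its probe set (1419838_s_at) read 56.0 and 54.4 in CLA at 12 h, against 29.9 and 29.8 in LA, 1.80-fold higher (log2 difference 0.85 ± 0.19, limma adjusted p = 0.0143). At 4 and 8 h the CLA readings were below those of LA, with neither difference called: the 4 h readings were 41.2 and 45.2, against 57.1 in LA, and the 8 h readings were 55.4 and 46.2, against 62.8 and 72.2 in LA. Within LA, Plk4 was lower at 12 h than at 8 h by -1.13 ± 0.19 (adjusted p = 0.00294), while in CLA the difference was 0.12 (95% interval -0.30 to 0.55). A further probe set, with a mean of 19.6, gave 1.45 between CLA and LA at 12 h and -1.53 between 12 and 8 h in LA, but 0.79 at 4 h and 0.12 at 8 h, the opposite sign to the brighter one.

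Of the 3 other mitotic kinases, 1 was lower in CLA. With Plk4, 2 of 4 were called at 12 h, against 18.8% of all genes. Aurka (1424511_at), the kinase of centrosomes and spindle poles, read 26.7 and 36.1 in CLA at 12 h, against 68.8 and 57.6 in LA, a fold of 1.97 lower (log2 difference -0.98 ± 0.24, limma adjusted p = 0.0184). At 4 and 8 h its readings in the 2 fatty acids overlapped or lay close, with 38.2 and 43.9 in CLA at 4 h, against 41.9 in LA, and 34.5 and 46.3 in CLA at 8 h, against 43.6 on both LA arrays. Aurkb, the kinase that corrects wrong kinetochore attachments, read 10.3 and 10.8 in CLA at 12 h, against 25.01 and 32.25 in LA (-1.28 ± 0.49, adjusted p = 0.0884). Its other probe set gave -0.16 at 12 h and 1.59 at 8 h, where this one gave -0.55. Plk1, which acts from mitotic entry to cytokinesis, read 22.2 and 30.5 in CLA, against 36.1 and 29.4 in LA (-0.30, 95% interval -1.24 to 0.63).

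Of the 5 checkpoint genes, Cdc20 was lower in CLA at 12 h and 4 were not called (20% called, against 18.8% of all genes). Cdc20 (1439377_x_at) read 102 and 131 in CLA, against 191 and 182 in LA, a fold of 1.61 lower (log2 difference -0.68 ± 0.14, limma adjusted p = 0.00976). At 8 h it read 125 and 126 in CLA, against 135 and 134 in LA. Within LA it was higher at 12 h than at 8 h by 0.47 ± 0.14 (adjusted p = 0.0393). A second probe set gave -0.27 between CLA and LA at 12 h and 0.50 between 12 and 8 h in LA. Between CLA and LA at 8 h it gave 0.23, where the brighter one gave -0.10, and at 4 h -0.46, where the brighter one gave -0.24. As for Kif22, the x_at probes of the brighter one may also bind other transcripts.

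Bub3, which carries Bub1 and Bub1b to unattached kinetochores, was the brightest checkpoint gene. It read 1002 and 944 in CLA at 4 h, against 1190.5 in LA. At 8 h it read 1016 and 1102 in CLA, against 1309 on both LA arrays. At 12 h the readings were 1143 and 1336 in CLA, against 1337 and 1412 in LA. The CLA arrays were below the LA arrays at each time, and the mean log2 difference over the 3 times was -0.25 ± 0.06 (limma adjusted p = 0.0300), with no call at any single time. Bub1, a checkpoint kinase, read 15.1 and 15.4 in CLA at 12 h, against 3.15 and 8.41 in LA. By its means it was at least 1.72-fold higher in CLA, a difference that was not called (limma adjusted p = 0.0744). Bub1b read 9.91 and 13.02 in CLA, against 8.61 and 7.96 in LA, a difference of 0.39 that was not called (adjusted p = 0.542). Its other probe set, nearly as bright with a mean of 14.4, gave -2.26, so the direction of Bub1b at 12 h is not settled. Mad2l1, which captures Cdc20, read 116 and 96.5 in CLA, against 89.9 and 87.7 in LA, a difference of 0.25 (95% interval -0.18 to 0.68).

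Neither cyclin was called in any comparison. Ccna2, the A-type cyclin of S phase and mitotic entry, read 55.3 and 51.2 in CLA at 12 h, against 55.8 and 73.2 in LA (log2 difference -0.26, 95% interval -0.69 to 0.17), and its other probe set gave 0.55. Ccnb2, a mitotic B-type cyclin, read 12.1 and 23.6 in CLA, against 27.3 and 19.7 in LA (-0.41, 95% interval -1.27 to 0.44). These intervals hold differences of either sign.

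**Figure D3:**
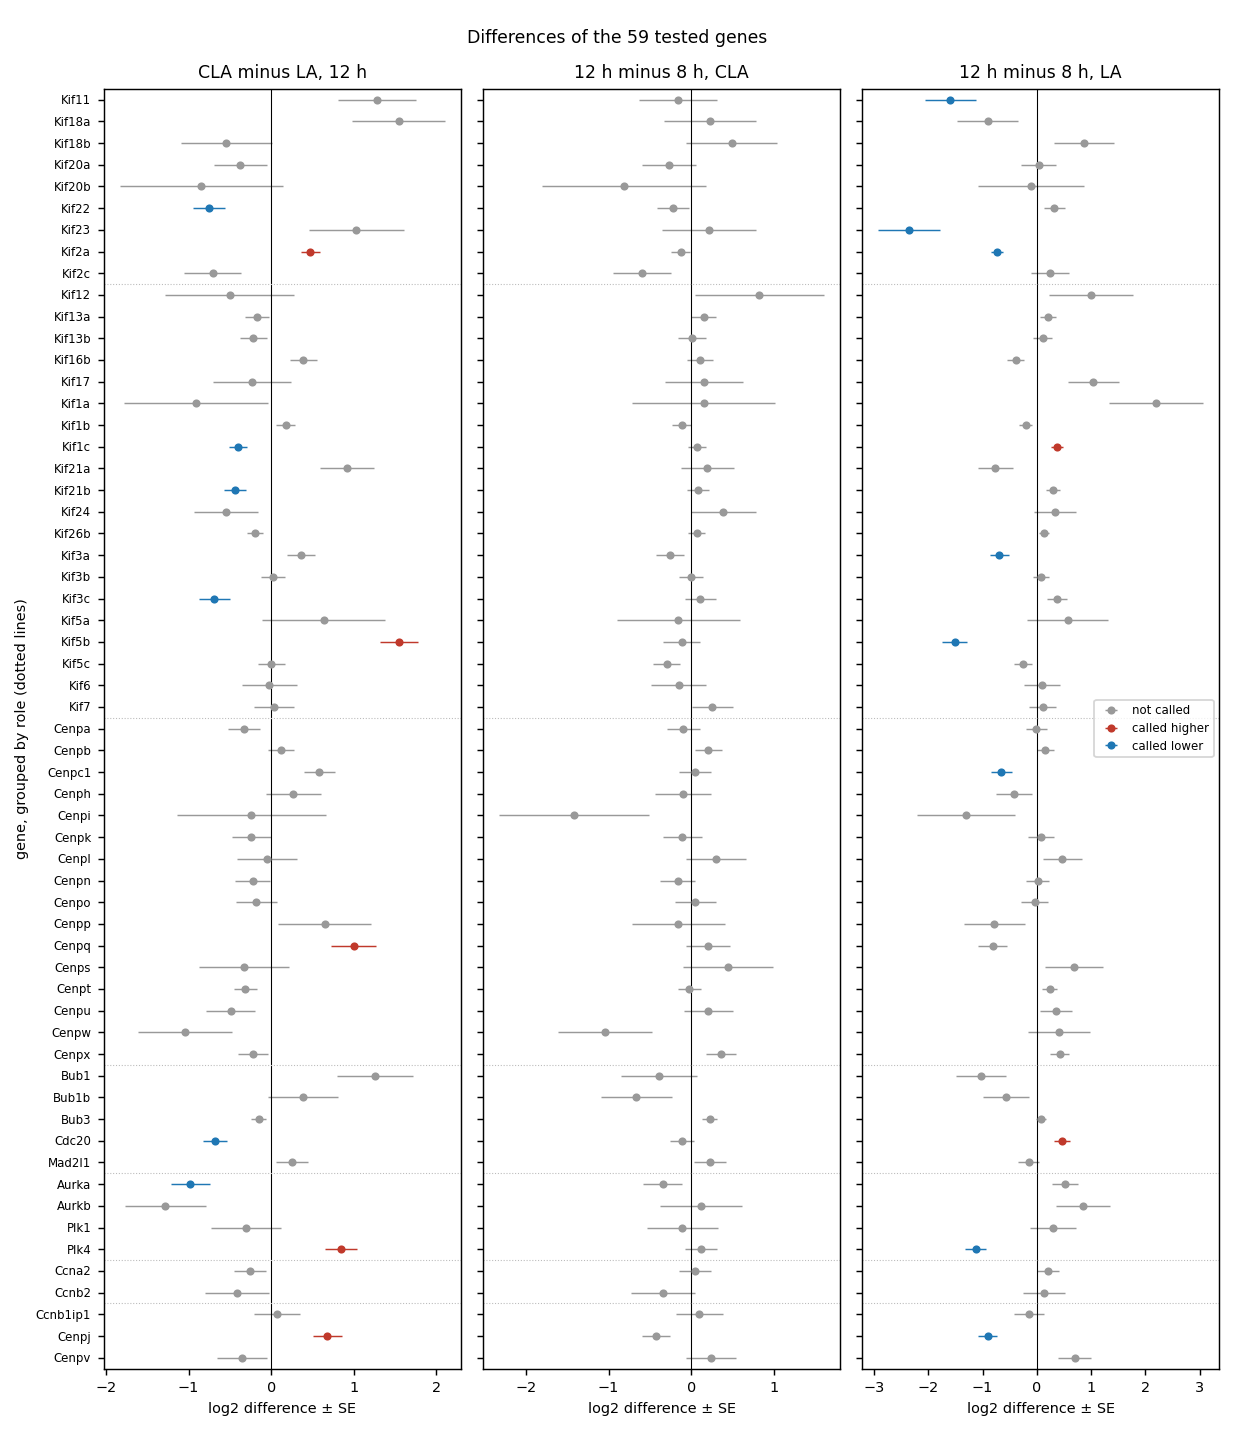
Log2 difference ± SE of each of the 59 genes, grouped by role, for CLA minus LA at 12 h, 12 h minus 8 h in CLA and 12 h minus 8 h in LA; red genes were called higher, blue lower, grey not called. The middle panel has no called gene, and the left and right panels have 11 and 10.

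The 5 genes higher in CLA at 12 h were Kif5b, Kif2a, Plk4, Cenpj and Cenpq, and the 6 lower were Aurka, Cdc20, Kif22, Kif1c, Kif21b and Kif3c. Of the first 5, 4 were also lower in LA at 12 h than at 8 h, Cenpq being the exception (adjusted p = 0.0518, limma), and of the 6, Cdc20 and Kif1c were higher in LA at 12 h than at 8 h. Both comparisons use the LA arrays at 12 h. In the mean over the 3 times the called genes were Kif5b (0.70, limma adjusted p = 0.0220), Kif22, Bub3, Cdc20 (-0.34, adjusted p = 0.0452) and Kif1c (-0.26, adjusted p = 0.0455). Without 12 h in the mean 0 were called, against 0.0805% of all genes. Of the 11 calls at 12 h, 10 were lost without at least 1 array, Kif5b being kept. Most calls at 12 h were lost without LA replicate 1 or 2 or CLA replicate 1 at that time. Fewer of all genes were called there too. The adjusted p where a call was lost ran from 0.0522 for Cdc20 to 0.191 for Kif21b. Of the 10 calls between 12 and 8 h in LA, those of Kif5b, Kif2a, Plk4 and Cenpj were kept without any 1 array. Without any 1 LA array of 8 or 12 h fewer were called in that comparison, among these genes and among all genes. Every call in the mean over the times was lost without 1 CLA array of 4 h or 1 LA array of 8 h. The same held for LA replicate 2 at 12 h, and fewer of all genes were called in each case. For CLA and LA at 12 h on intensities as deposited, 13 genes were higher and 0 lower (22%, against 15.5% of all genes). The median of all genes was then 0.27 in place of -0.15. With median scaling of the arrays, 7 were higher and 3 lower (16.9%, against 10.6% of all genes).

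**Figure D4:**
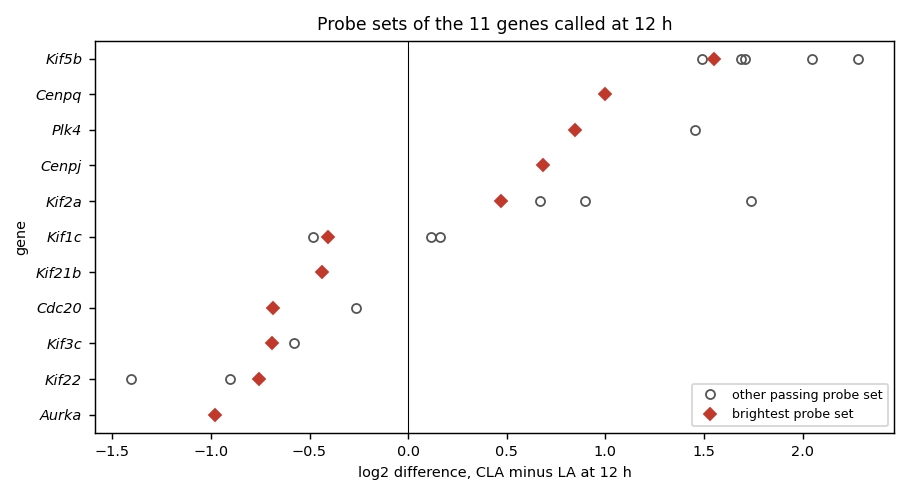
Log2 difference between CLA and LA at 12 h for each probe set that passed the filter, for the 11 genes called at 12 h; diamonds are the brightest probe set, circles the others. All 6 probe sets of Kif5b lie right of 0, between 1.49 and 2.28, and those of Kif1c lie on both sides of 0.

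In the authors' deposited table for 12 h, 11 of the 59 genes had a p-value under 0.05 after Benjamini-Hochberg adjustment over the genes tested here, 8 with a positive and 3 with a negative log10 ratio, against 21% of all genes. The direction of that ratio is not named and was taken as CLA over LA. In all, 7 genes were called both there and by limma, 63.6% of each list. Their signs are no separate evidence, since the direction of the ratio was set from its correlation with the same differences; turned round, all 7 would be opposite. In the authors' deposited table the log10 ratio was 0.478 for Kif5b, 0.376 for Plk4, 0.264 for Cenpj, 0.164 for Kif2a and -0.117 for Cdc20. Aurka, at -0.189, was not called there (adjusted p = 0.307). Neither were Kif22 (-0.073, adjusted p = 0.4845), Kif3c (-0.074, adjusted p = 0.368) and Kif1c (-0.077, adjusted p = 0.0693). All of these had been called lower in CLA by limma, whereas every gene called higher by limma was also called there. Bub3, Cenpc1, Kif16b and Kif3a were called there but not by limma at 12 h. The authors' deposited tables for 4 and 8 h gave 0 of the 59 genes each, against 0.901% and 0.121% of all genes.

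A pair of short elements is known from promoters of genes that peak in G2 and M phase: the cell cycle genes homology region (CHR, TTTGAA) and the CCAAT box, bound by NF-Y. Promoters of 4 genes lower and 2 higher in CLA at 12 h are given as the 250 bases before the gene's start, from RefSeq on GRCm38.p6. They show genes with and without CCAAT in both directions. A higher gene with CHR could not be shown, since 0 of the 4 higher genes with a matched promoter held it. CHR and CCAAT matches on either strand are in capitals. They span chr4:118437344-118437593 (minus strand) for Cdc20, chr7:127042421-127042670 (minus strand) for Kif22, chr2:172370571-172370820 (minus strand) for Aurka, chr12:3364882-3365131 (plus strand) for Kif3c, chr17:40934575-40934824 (minus strand) for Cenpq and chr3:40799701-40799950 (plus strand) for Plk4.
Cdc20: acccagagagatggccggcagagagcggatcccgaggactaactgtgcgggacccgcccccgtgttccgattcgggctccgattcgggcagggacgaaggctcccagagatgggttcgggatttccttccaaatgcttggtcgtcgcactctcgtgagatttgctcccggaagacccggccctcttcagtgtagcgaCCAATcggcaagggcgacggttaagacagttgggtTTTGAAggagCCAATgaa
Kif22: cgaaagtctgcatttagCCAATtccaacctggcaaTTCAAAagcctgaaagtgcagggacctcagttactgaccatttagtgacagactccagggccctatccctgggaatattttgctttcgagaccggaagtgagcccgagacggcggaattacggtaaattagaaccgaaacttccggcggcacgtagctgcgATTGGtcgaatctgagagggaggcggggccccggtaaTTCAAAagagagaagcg
Aurka: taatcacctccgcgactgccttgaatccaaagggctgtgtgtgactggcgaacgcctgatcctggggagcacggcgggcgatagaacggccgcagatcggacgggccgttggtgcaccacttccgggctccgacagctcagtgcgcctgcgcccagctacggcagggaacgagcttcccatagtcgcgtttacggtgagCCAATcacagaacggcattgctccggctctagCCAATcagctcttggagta
Kif3c: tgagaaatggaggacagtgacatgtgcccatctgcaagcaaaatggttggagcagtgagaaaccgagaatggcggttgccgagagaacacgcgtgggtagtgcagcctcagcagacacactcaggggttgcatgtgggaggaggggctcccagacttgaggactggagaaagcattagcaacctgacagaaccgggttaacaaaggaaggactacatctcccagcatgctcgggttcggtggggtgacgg
Cenpq: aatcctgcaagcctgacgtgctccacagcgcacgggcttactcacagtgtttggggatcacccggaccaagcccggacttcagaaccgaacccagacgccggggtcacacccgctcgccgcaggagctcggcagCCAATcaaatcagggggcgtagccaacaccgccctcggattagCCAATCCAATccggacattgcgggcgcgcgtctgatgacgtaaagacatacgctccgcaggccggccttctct
Plk4: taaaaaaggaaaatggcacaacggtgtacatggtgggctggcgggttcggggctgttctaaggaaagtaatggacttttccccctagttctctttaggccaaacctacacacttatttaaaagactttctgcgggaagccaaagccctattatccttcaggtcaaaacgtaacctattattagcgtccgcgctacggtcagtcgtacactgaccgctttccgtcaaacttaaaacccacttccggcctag

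Cdc20 holds TTTGAA 18 to 13 bases before its start and CCAAT boxes 53 to 49 and 8 to 4 bases before it. Kif22 holds them on the opposite strand, as TTCAAA 17 to 12 and ATTGG 54 to 50 bases before its start, with further matches at 215 to 210 and 233 to 229 bases before it. Aurka holds 2 CCAAT boxes and Cenpq 3, both without TTTGAA, and Kif3c and Plk4 hold neither, as do Kif1c and Cenpj. Promoters were matched by symbol for 52 of the 59 genes, 6 of them with several, and a gene counted if any of its promoters held the element. A CHR match was in 21.2% of the 52 and in 18.3% of all 27025 genes with a promoter, a CCAAT match in 48.1% and 37.5%, and both in 17.3% and 6.45%. Of the 5 matched genes that were lower in CLA at 12 h, 3 held CCAAT and 2 held both. Of the 4 that were higher, 1 held CCAAT and 0 held CHR. In the promoters shown, no CHR match overlaps a CCAAT match. A match describes letters in this window and does not show that a factor binds there.

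Other mitotic genes were called in both directions too. Of 29 tested, 1 was higher and 2 were lower in CLA at 12 h, which is 10.3% against 18.8% of all genes. Smc2, a core subunit of condensin, read 151 and 105 in CLA, against 21.5 and 47.7 in LA (log2 difference 1.91, limma adjusted p = 0.00505), whereas Ncapd2, another condensin subunit, was lower (-0.82, adjusted p = 0.0233), as was Racgap1, the partner of Kif23 (-0.63, adjusted p = 0.0406). Of 17 subunits and partners of the anaphase-promoting complex, 1 was higher and 3 were lower, which is 23.5% against 18.8% of all genes. Cdc27, a scaffold subunit, read 441 and 437 in CLA at 12 h, against 184 and 165 in LA (1.32, adjusted p = 0.00085), and its change between 8 and 12 h differed between CLA and LA by 1.13 ± 0.22 (adjusted p = 0.0440). Anapc2, the cullin subunit of the complex, was lower (-0.42, adjusted p = 0.0131).

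Of 21 transcription factors and regulators of mitotic genes, 3 were higher and 2 lower in CLA at 12 h, which is 23.8% against 18.8% of all genes. The shares of these lists are no result about them. Mybl2, an activator of G2 and M phase genes, read 7.40 and 9.52 in CLA, against 26.4 and 26.1 in LA (log2 difference -1.45, limma adjusted p = 0.0253). Rb1, which holds back E2F, read 253 and 263 in CLA, against 141 and 152 in LA (0.81, adjusted p = 0.00304). Nfyb, a subunit of NF-Y, read 190.2 and 124 in CLA, against 79.4 and 83.4 in LA (0.90, adjusted p = 0.0237). The other NF-Y subunits read lower in CLA: Nfyc 394 and 411, against 501 and 506 in LA, and Nfya 355 and 381, against 384 and 395. Marker genes of cycling cells did not run one way either. At 12 h the proliferation marker Mki67 read 26.4 and 13 in CLA, against 7.24 and 7.25 in LA, which is below background, while Cdk1, the mitotic kinase partner of the cyclins, read 339 and 353 in CLA, against 402 and 408 in LA. Mcm2, a subunit of the replicative helicase, read 347 and 371 in CLA, against 467 and 495 in LA. Top2a, which untangles DNA, read 88.5 and 91.4 in CLA, against 79.8 and 79.4 in LA. The summed intensity of 5 cycling-cell markers was 3165 to 3193 in CLA and 3112 to 3265 in LA at 12 h, a sum made up mostly by Pcna, at 2392 and 2337 in CLA and 2156 and 2275 in LA. Their part in the results was not tested.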

How the data were processed

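Per the labels' protocols, total RNA of 3T3-L1 cultures was extracted with Trizol and hybridised as biotinylated cRNA to 1-colour arrays. The deposited value table holds background-subtracted intensities on a linear scale, with some values below 0. The sources used here do not give the software behind these intensities. The deposited intensities were not normalised between arrays. Per the file headers, the authors' tables of combined replicates hold a log10 ratio and a p-value per probe set. The deposited file names credit these tables to Rosetta Resolver, with version and settings unstated. The direction of the ratio is not named, and was taken as CLA over LA because it correlated positively with CLA minus LA across genes (r = 0.651, 0.677 and 0.819 at 4, 8 and 12 h).

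Quantile normalisation over the 11 arrays was applied to the intensities of 45101 probe sets. Negative values were raised to 0 and the log2 of value plus 1.84, the 25th percentile, was analysed, a scale that understates changes of dim genes. Only probe sets naming 1 gene and averaging above the 40th percentile entered, with the brightest for each gene. Array background was the 95th percentile of 27 bacterial control probe sets. A gene at or below it on every array of 1 group has a bound, given as "at least". This is the mean of the brighter group over that background or, where higher, the gene's own reading, on the log2 scale. The bound leaves out the spread between arrays, so the true difference may be smaller. limma 3.58.1 (R 4.3.3) fitted 1 mean per group over all 12428 genes, with an intensity trend, 5 residual and 6.10 prior degrees of freedom. The number of arrays limits the precision. The fit was checked on simulated data.

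Named genes are those called in any comparison or in the authors' deposited tables, the 3 with the smallest p in each comparison, and a list of core mitotic genes. Of the other lists, up to 3 called genes a comparison are named, with Nfya and Nfyc beside Nfyb. The genes and lists were chosen with earlier results of these data known. Same-numbered replicates did not deviate together across genes (r -0.0418 to 0.0743 over 10 pairs), and the main fit did not pair them. Whether the numbers mark a shared culture or batch is not known. Alternatives covered scaling, offset, filter, probe set choice, trend, arrays in the fit, replicate block, array median as covariate, and each array left out in turn.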

Additional observations from a re-analysis of the deposited data

How the results depend on the processing

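Over 601 repeats of the 26 called gene differences, 406 kept call and direction, 194 lost the call and 1 reversed. Kept under all 23 alternatives were Kif5b at 12 h, and Kif5b, Kif2a, Plk4 and Cenpj between 8 and 12 h in LA. Kif21b at 12 h reversed to 0.087 with values as deposited, and Kif22 at 4 h, not called, to 0.39 when probe sets of a gene were averaged. The cause was not tested. In place of 11 genes called between CLA and LA at 12 h there were 6 with no filter and 7 without the intensity trend. There were 4 with only the arrays of the contrast and 1 with the array median as covariate. In the same order, 7.16%, 8.5%, 11.8% and 1.29% of all genes were called, in place of 18.8%. In place of 5 in the mean there were 1 with median scaling, 0 with values as deposited and 0 with no filter. The shares of all genes were 3.85%, 0.137% and 0.528%, in place of 7.16%. There were 1 with averaged probe sets and 0 without the trend (3.5% and 0.00805% of all genes). There were 3 with the replicate block within each time and 1 with the array median as covariate (7.56% and 4.27%). Without 12 h, a setting chosen after seeing the data, there were 0 (0.0805%). In place of 10 between 8 and 12 h in LA there were 5 with no filter and 4 with the array median as covariate. Of all genes, 10.2% and 6.53% were called there, in place of 22.3%. In place of 0 for the difference between these changes there were 2 with median scaling and 2 with cyclic loess. There were 1 with the replicate block and 1 with the replicate block within each time. The shares of all genes were 2.25%, 1.98%, 1.71% and 2.62%, in place of 1.17%. Leaving out each array in turn gave 1 to 14 genes at 12 h, 0 to 9 in the mean, 4 to 11 between 8 and 12 h in LA and 0 to 4 for the difference. The number of all genes called also varied with the array left out. The replicate block left 11 calls at 12 h, 5 in the mean and 10 in LA, with 19.7%, 9.99% and 22.4% of all genes called. Without the LA array at 4 h, CLA and LA could not be compared at that time. Signal limits the dim genes: 7 of the 59 were at background in both LA arrays at 12 h, against 0 in CLA. The share over all genes was not computed, so this count is no result about these families.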
